A study of Mus musculus with 8 samples.

Results

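Of the 24498 genes in the deposited table, 9 encode core scaffolds of the excitatory postsynaptic density and the kinase CaMKII held there, and they were chosen by name. They are the membrane-associated guanylate kinases Dlg4, Dlg2 and Dlg3, the linker Dlgap1, the master scaffolds Shank1, Shank2 and Shank3, and the CaMKII subunits Camk2a and Camk2b. RNA came from dissected dorsal hippocampus of C57BL/6J males, 10 to 12 weeks old, that had received an adeno-associated virus there 3 weeks before. The knockdown vector, AAV2/9.U6.shACSS2.CMV.EGFP, carried a U6-driven short hairpin against Acss2, which encodes an enzyme that turns acetate into acetyl-CoA, and a CMV-driven EGFP. The control vector, AAV2/9.CMV.EGFP.polyA, carried EGFP and no hairpin, so all 4 groups had viral EGFP and none was free of injection. Neither promoter is restricted to neurons, and no source used here gives the share of infected cells. Trained mice met objects in an arena during 3 trials that lasted 6 min each and were killed 30 min later, and untrained mice stayed in the home cage. Each of the 4 groups (control untrained, control trained, knockdown untrained, knockdown trained) had 2 libraries of polyadenylated RNA. The labels do not state whether the 2 libraries of a group were separate mice, so p-values measure only the spread between these libraries, which may be technical.

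The postsynaptic density is a protein mesh under the membrane of excitatory synapses. Dlg proteins (PSD-95 for Dlg4, PSD-93 for Dlg2, SAP102 for Dlg3) bind receptors, adhesion proteins and signalling enzymes through PDZ domains. Dlgap1 links their guanylate kinase domain to the Shank proteins, which reach Homer and the actin cytoskeleton. CaMKII is a calcium- and calmodulin-activated kinase built mainly of alpha and beta subunits. In forebrain excitatory neurons it is very abundant, binds NMDA receptors after strong calcium entry, and is required for common forms of hippocampal long-term potentiation and spatial learning. Camk2a and Shank1 mRNAs are known to be carried into dendrites.

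Values are normalized read counts: reads of a gene divided by 1 size factor per library. In every list of values below the libraries stand in a fixed order, named by the ends of the deposited column names: control untrained eGFP.254 and eGFP.268, control trained eGFP.250 and eGFP.266, knockdown untrained KD.253 and KD.255, knockdown trained KD.249 and KD.251. The 6 deeper libraries held between 6537749 and 9863728 reads in genes. KD.255 held 272456 and KD.251 held 1484318, so 1 read was worth 15.6 and 2.88 normalized read counts there, against 0.444 to 0.659 elsewhere. Acss2, the targeted gene, measured 58.2, 82.0, 87.4, 67.5, 25.0, 15.6, 25.6 and 57.7 normalized read counts. All 4 knockdown libraries lay below all 4 control libraries, but KD.251 lay only just below, and the value in KD.255 rests on 1 read. The averaged Acss2 difference did not pass the all-gene test (log2 difference -1.37, SE 0.33, limma adjusted p = 0.333). Acss2 exons overlap exons of 3 genes on the other strand, Ggt7, Acss2os and Gss, and no source used here gives the strand setting of the counting. The label of hippocampal tissue was checked with 18 markers of excitatory hippocampal neurons: all 18 had reads in every library, with a summed level between 41958 and 58935 normalized read counts.

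Every one of the 9 genes passed the filter on low values (a mean of at least 10 normalized read counts), as did 12681 genes in all. Per kilobase of merged exons (GENCODE vM21, GRCm38), Camk2a had the highest level, 3418 ± 436 (SD, n = 8 libraries) normalized read counts per kb, followed by Camk2b at 818 ± 170. Each stood above the next gene in 8 of 8 libraries. Dlg4 followed at 321 ± 67.0 per kb and Shank1 at 289 ± 79.8 per kb, and these levels were not separated, since Dlg4 was the higher in 3 of 8 libraries. Dlg3 had 218 ± 45.3 per kb and lay below Shank1 in 6 libraries and above Dlgap1 in 7. Dlgap1 had 186 ± 22.0 per kb and Dlg2 130 ± 20.6 per kb, in this order in all 8 libraries. Shank3 (89.9 ± 11.4 per kb) and Shank2 (89.3 ± 13.4 per kb) were lowest and changed places between libraries, with Shank3 higher in 5 of 8. The middle of this order depends on the gene model: per kb of the longest coding transcript, Dlgap1 stood at rank 4, Shank1 at 5, Dlg2 at 6 and Dlg3 at 7, while the first 3 and the last 2 kept their ranks. Before division by length, all 9 were among the more abundant tested genes, from the percentile 91.0 (Shank3) to 99.98 (Camk2a) of mean normalized read count.

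**Figure D1:**
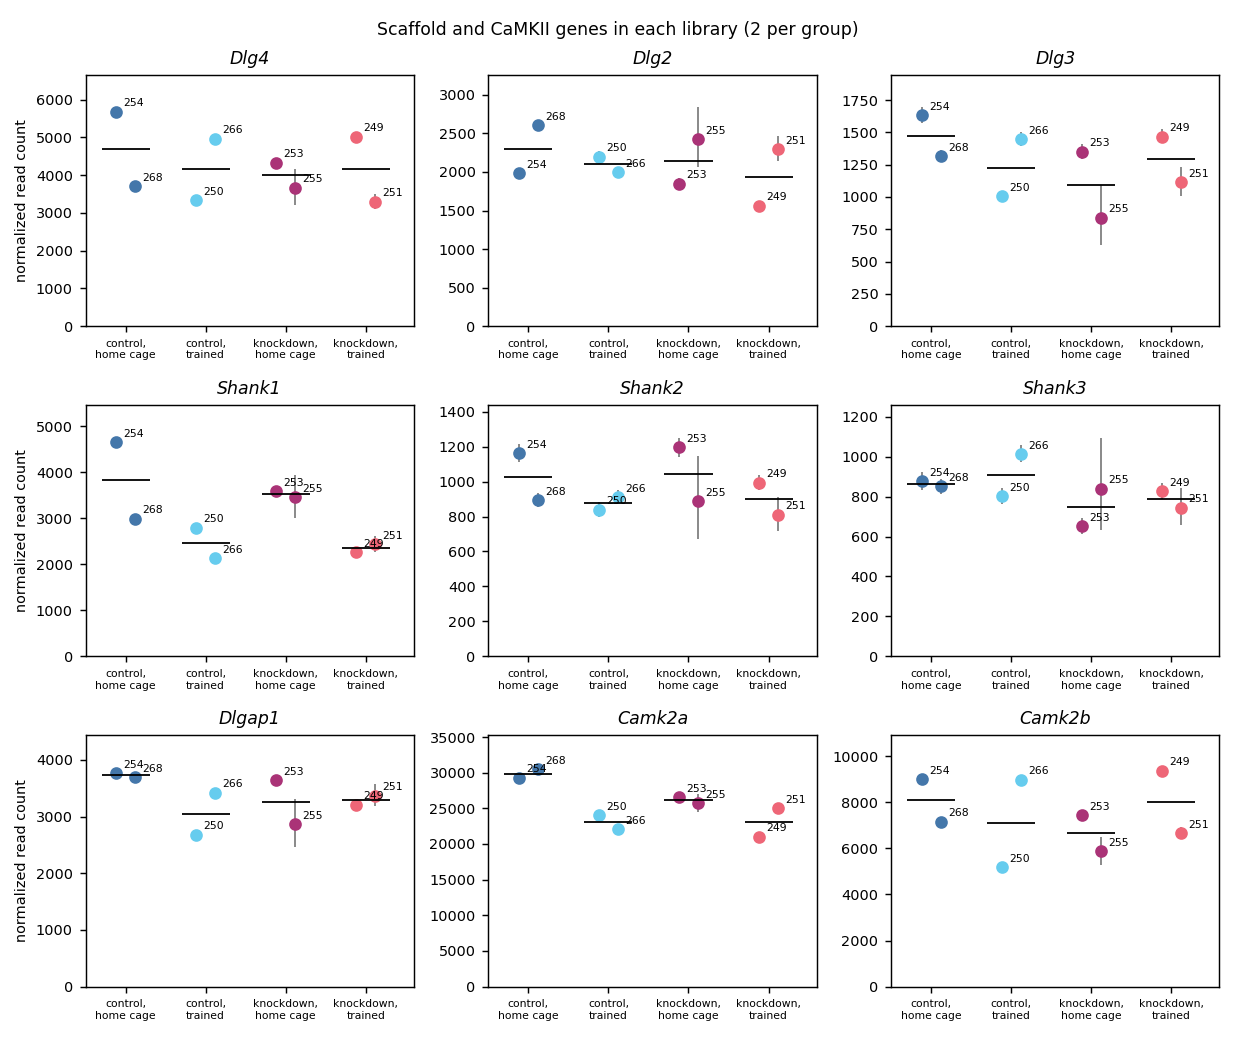
Normalized read counts (vertical axes, from 0) of the 9 genes in the 4 groups; each point is 1 library with the number from its column name, vertical lines are 95% Poisson intervals of its reads and horizontal bars are group means of 2 libraries. In the Shank1 and Camk2a panels the 4 trained libraries lie below the 4 home cage libraries; in the other 7 panels they overlap.

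Among the membrane-associated guanylate kinases, Dlg4 (GRCm38, chr11:70016942-70047522, plus strand) measured 5679, 3706, 3331, 4967, 4328, 3670, 5014 and 3300 normalized read counts. In each group 1 library was high (4328 to 5679) and the other low (3300 to 3706), so that libraries of a group differed more than the groups did. Group means lay between 3999 (knockdown untrained) and 4693 (control untrained), and 3 of the 4 knockdown libraries fell inside the range of the control libraries (3331 to 5679), with KD.251, at 3300, just below it. The averaged differences were -0.10 for knockdown against control (log2; 95% interval -0.56 to 0.35) and -0.07 for training against home cage (-0.53 to 0.38).

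Dlg2 (chr7:90476672-92449247, plus strand), the scaffold that also gathers potassium channels, measured 1987, 2603, 2200, 2000, 1847, 2426, 1561 and 2296 normalized read counts. The lowest library, KD.249, was among the highest for Dlg4, and eGFP.268 and KD.255, high for Dlg2, were low for Dlg4. The averaged log2 differences of Dlg2 were -0.13 for knockdown (95% interval -0.49 to 0.24) and -0.14 for training (-0.51 to 0.23). Without both shallow libraries, the knockdown difference was -0.36 (limma adjusted p = 0.497), more than 1.5 times as large. That value rests on the remaining 2 knockdown libraries, at 1847 and 1561.

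Dlg3 (chrX:100767722-100818410, plus strand), the member of the family linked to receptor traffic early in synapse formation, measured 1633, 1315, 1004, 1450, 1350, 840, 1468 and 1116 normalized read counts. The lowest value came from 54 reads in KD.255, with a Poisson interval of 631 to 1096, and the next lowest from the deep library eGFP.250. In untrained mice the knockdown libraries averaged 1095 against 1474 in control, a log2 difference of -0.46 (SE 0.29, limma adjusted p = 0.816). That difference rests on KD.255: it was -0.12 without it. The averaged training difference was -0.01 (95% interval -0.48 to 0.46).

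Upstream sequence is shown for 3 members, since Dlg3 and Camk2b had close profiles across the libraries and Dlg2 had one of the most distant (values given with the profiles below). These 3 were picked after their values were seen. Windows of 6 of the 9 genes were read from the RefSeq promoter table (GRCm38.p6). Entries on the chromosome of Camk2a were left out of this search. Each window shown holds the 250 bases before a start site and no annotated exon. Capitals mark GC boxes, the letters GGGCGG on either strand, which read CCGCCC where the box lies on the other strand.
Dlg3, chrX:100777021-100777270, plus strand: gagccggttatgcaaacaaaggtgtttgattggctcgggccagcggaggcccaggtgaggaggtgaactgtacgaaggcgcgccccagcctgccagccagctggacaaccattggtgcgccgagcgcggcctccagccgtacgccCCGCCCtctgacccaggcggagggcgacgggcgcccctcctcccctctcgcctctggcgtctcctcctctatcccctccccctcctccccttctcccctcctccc
Camk2b, chr11:6065749-6065998, minus strand: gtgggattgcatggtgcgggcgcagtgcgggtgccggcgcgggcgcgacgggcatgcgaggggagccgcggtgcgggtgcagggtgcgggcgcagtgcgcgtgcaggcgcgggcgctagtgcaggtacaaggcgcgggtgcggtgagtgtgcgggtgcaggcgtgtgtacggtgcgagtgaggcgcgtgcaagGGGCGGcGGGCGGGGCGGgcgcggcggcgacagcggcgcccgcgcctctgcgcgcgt
Dlg2, chr7:92062144-92062393, plus strand: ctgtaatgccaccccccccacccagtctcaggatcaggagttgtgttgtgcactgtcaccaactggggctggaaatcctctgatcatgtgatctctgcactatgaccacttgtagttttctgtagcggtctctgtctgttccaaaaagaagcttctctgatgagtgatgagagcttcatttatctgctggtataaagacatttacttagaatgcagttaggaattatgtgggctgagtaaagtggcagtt
The Dlg3 window held 1 GC box and 69.2% G and C, the Camk2b window 3 boxes, of which the last pair share a base, and 78.4%, and the Dlg2 window no GC box and 45.6%. The Dlg2 window held 1 match to the letters of a TATA box (TATAAA, either strand), 60 bases before the start site, and the other windows shown none. This Dlg2 start site lies inside the gene, which begins at chr7:90476672. Of 32851 RefSeq windows of the same length, 32.7% held a GC box and 12.4% a TATA box. A second Dlg3 window without exon bases (chrX:100774245-100774494, plus strand) held no GC box and 55.2% G and C, so the likeness to the Camk2b window holds for 1 of the 2. Dlg2 also has further start sites, and these data do not show which were used. The Shank3 window without exon bases held 4 GC boxes and 82.4% G and C, and the Shank3 profile lay 0.281 from that of Camk2b. The Dlgap1 window without exon bases held no GC box and 55.2%, and the Dlgap1 profile lay 0.211 from that of Camk2b. Among the 9, Dlg4 had the profile nearest to Camk2b (0.133), and its windows, all with exon bases, held 0, 0 and 1 GC boxes. A link between windows and profiles was not tested.

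Dlgap1 (chr17:69969073-70821413, plus strand), the linker between Dlg and Shank proteins, measured 3768, 3698, 2679, 3420, 3637, 2862, 3208 and 3369 normalized read counts. Of the untrained libraries 3, between 3637 and 3768, lay above all 4 trained libraries, and the fourth, KD.255, with 184 reads, lay below 3 of them. The averaged training difference was -0.14 (log2; SE 0.14; limma adjusted p = 0.879) and was -0.26 without both shallow libraries, over 1.5 times as large. The knockdown difference was -0.05 (95% interval -0.36 to 0.27).

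Shank1 (chr7:44310253-44360572, plus strand), a Shank protein that promotes the growth of dendritic spines, measured 4648, 2993, 2791, 2126, 3591, 3453, 2265 and 2435 normalized read counts. All 4 trained libraries, between 2126 and 2791, lay below all 4 untrained libraries, between 2993 and 4648. The means were 2404 ± 287 (SD, n = 4) in trained and 3671 ± 700 (SD, n = 4) in untrained libraries, a ratio of 0.655. In an exact two-sided permutation test over the 8 libraries p was 0.0286, the smallest that 4 against 4 can give, and 0.257 after Benjamini-Hochberg adjustment over 18 such tests (9 genes, both contrasts). In the fit across all genes the averaged difference was -0.60 (log2; SE 0.16; 95% interval -0.96 to -0.24), with an unadjusted limma p of 0.00402 and an adjusted p of 0.873. It thus did not pass. No gene passed in this comparison (background 0.0%), while 4.86% of tested genes had an unadjusted p under 0.05. Trained libraries all below untrained ones, as for Shank1, occurred in 1.62% of tested genes (205). The difference was -0.61 (SE 0.25) in control and -0.58 (SE 0.25) in knockdown mice, and the difference between these responses was 0.03 (95% interval -0.75 to 0.81). Leaving out 1 library moved the control value between -0.93 and -0.30, and the knockdown value between -0.64 and -0.53. The like size with either vector thus depended on which control libraries were kept.

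Other measures of these libraries are set beside the Shank1 difference here. Its longest coding transcript is 61.4% G and C, against a median of 49.97% and an upper quartile of 54.8% over tested genes. Genes in the top quartile stood above those in the bottom quartile by 0.45 (median log2) in eGFP.254 and 0.27 in KD.253, both untrained, and between -0.32 and -0.00 in the other 6. With a correction for G and C content and length, added after seeing the data, the Shank1 difference was -0.43 (limma adjusted p = 0.893). Shank3, at 62.4% G and C, had a training difference of 0.07 without this correction, and of -0.0018 to 0.26 over the 19 alternative settings. Among the excitatory neuron markers, 7 of 18 stood higher and 11 lower in trained mice (median -0.06). The lowest difference of the 18 was that of Fibcd1, -0.88 (SE 0.19, limma adjusted p = 0.873), picked here after its values were seen. It measured 223, 279, 99.3, 117, 164, 187, 130 and 107 normalized read counts. As the extreme of a list with both signs, it does not stand for the other markers. Of 15 oligodendrocyte markers 13 stood higher in trained mice (median 0.48), with summed levels of 12098 to 20949 in untrained and 20186 to 30883 in trained libraries. Of 8 endothelial and mural markers 7 stood lower in trained mice (median -0.28), with summed levels of 1246 to 1540 in untrained and 979 to 1274 in trained libraries, and Ly6c1 was at 0 in KD.255. Of 12 microglia markers 11 stood lower (median -0.24), with summed levels of 1449 to 3266 in untrained and 1329 to 3108 in trained libraries and a read for every marker in every library. The part of these measures in the Shank1 difference was not tested beyond the correction given, and in bulk tissue fewer cells of a type and less RNA per cell cannot be told apart. Shank1 exons share 339 bases with 1700008O03Rik on the other strand.

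Only 1 of the settings tried called Shank1: limma voom with quality weights, which weights each library by its own spread, gave -0.73 (adjusted p = 0.0189) and called 344 of 14057 genes (background 2.45%) in the averaged training comparison. In the other 18 alternatives to the fit reported here, the Shank1 difference stayed below 0 and did not pass. Leaving out 1 library at a time moved it between -0.72 (without eGFP.268) and -0.47 (without eGFP.254), and without both shallow libraries it was -0.63.

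Shank2 (chr7:144001928-144424494, plus strand) measured 1163, 895, 840, 910, 1196, 886, 993 and 811 normalized read counts. The highest values were those of eGFP.254 and KD.253, and the others lay between 811 and 993 with no order by group. Its averaged training difference was -0.21 (log2; 95% interval -0.54 to 0.12) and its knockdown difference 0.03 (-0.31 to 0.36). Shank3 (chr15:89499623-89560261, plus strand), the scaffold whose loss causes Phelan-McDermid syndrome, measured 878, 851, 803, 1014, 652, 840, 827 and 744 normalized read counts. Of the 4 control libraries 3 lay above all 4 knockdown libraries, and eGFP.250 fell among the knockdown libraries. The averaged knockdown difference of Shank3 was -0.21 (SE 0.13, 95% interval -0.51 to 0.09, limma adjusted p = 0.873), and its training difference was 0.07 (-0.23 to 0.37). Shank3 exons share 271 bases, and Dlgap1 exons 92 bases, with non-coding genes on the other strand.

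Camk2a (chr18:60925618-60988152, plus strand), the alpha subunit, measured 29279, 30463, 24024, 22074, 26547, 25708, 21034 and 25022 normalized read counts. All 4 trained libraries, at most 25022, lay below all 4 untrained libraries, at least 25708. The gap between them was narrow and set by the 2 shallow libraries: KD.255 (1653 reads, Poisson interval 24484 to 26978) and KD.251 (8674 reads, interval 24498 to 25554) overlap in their counting error. The means were 23038 ± 1812 (SD, n = 4) in trained and 27999 ± 2241 (SD, n = 4) in untrained libraries, a ratio of 0.823, with an exact permutation p of 0.0286 (adjusted 0.257). In the all-gene fit the averaged difference was -0.28 (log2; SE 0.13; 95% interval -0.58 to 0.02; limma adjusted p = 0.873). It was -0.38 in control and -0.19 in knockdown mice, and the difference between these responses was 0.19 (95% interval -0.48 to 0.86). Without both shallow libraries the averaged difference was -0.36. The marker values given beside Shank1 come from the same libraries, and their part in the Camk2a difference was not tested.

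Camk2b (chr11:5969644-6066362, minus strand), the beta subunit that binds actin filaments, measured 9015, 7171, 5189, 8988, 7438, 5879, 9370 and 6675 normalized read counts. Its lowest and highest libraries, eGFP.250 and KD.249, were both trained, and the averaged training difference was 0.01 (95% interval -0.47 to 0.49), with the opposite sign (-0.01) under TMM scaling. The knockdown difference was -0.04 (-0.52 to 0.45). In eGFP.250, where Camk2b was lowest, markers of the choroid plexus summed to 71398 normalized read counts, against 707 to 18541 in the other 7 libraries. The sum of 18541 was that of eGFP.254, where Camk2b measured 9015. The part of this tissue in the low value of eGFP.250 was not tested.

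**Figure D2:**
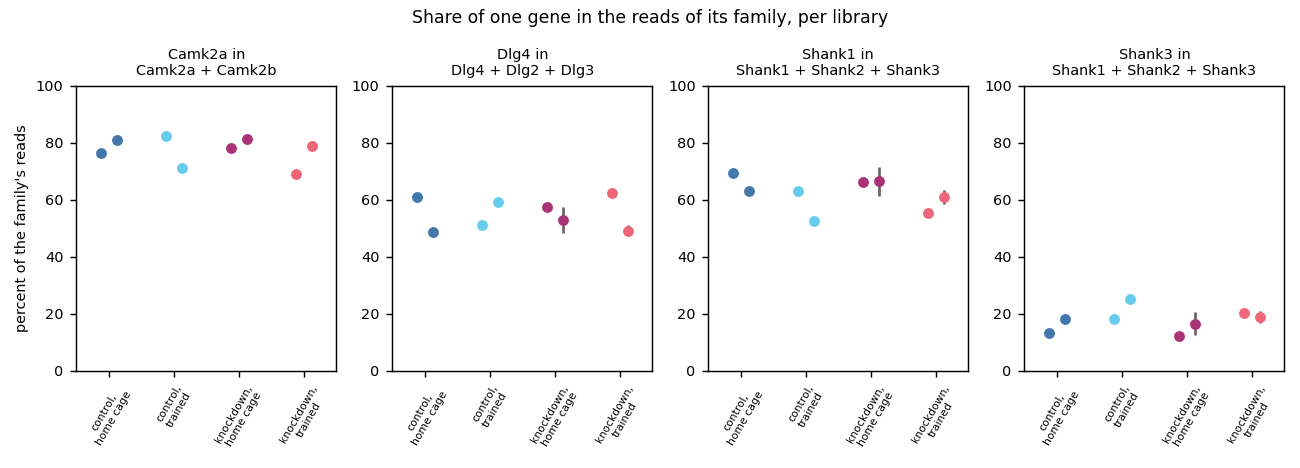
Share of 1 gene in the reads of its family (vertical axes, 0 to 100 percent) in each library, by group; vertical lines are Wilson 95% intervals, mostly smaller than the points. Shank1 shares are lower, and Shank3 shares higher, in the 4 trained than in the 4 home cage libraries, while Camk2a and Dlg4 shares overlap.

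Shares within a family do not depend on a library's size factor. Shank1 made up 69.5, 63.2, 63.0, 52.5, 66.03, 66.7, 55.4 and 61.0% of the reads of the 3 Shank genes. The trained libraries averaged 58.0 ± 4.85% and the untrained ones 66.3 ± 2.60% (SD, n = 4 each), a difference of -8.36 points, and the groups were separated only just, by eGFP.250 (Wilson interval 61.9 to 64.0%) and eGFP.268 (62.2 to 64.1%). The Shank3 share was 13.1, 18.0, 18.1, 25.0, 12.0, 16.2, 20.2 and 18.7%, a difference of 5.69 points in the other direction. Again every trained library lay above every untrained one, by a gap within the counting error. Both had an exact permutation p of 0.0286 and 0.143 after adjustment over 10 share tests. The shares are not independent, since they add up with that of Shank2 to the whole, and the Shank3 count itself differed by 0.07 (log2).

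Camk2a made up 76.5, 80.9, 82.2, 71.1, 78.1, 81.4, 69.2 and 78.9% of the reads of both CaMKII genes, without correction for length. The lowest pair of shares and the highest share came from trained libraries, and the groups overlapped (exact permutation p = 0.343 for training and 0.800 for knockdown). Dlg4 made up 61.1, 48.6, 51.0, 59.0, 57.5, 52.9, 62.3 and 49.2% of the reads of Dlg2, Dlg3 and Dlg4. Its shares spanned nearly the same range in trained (49.2 to 62.3%) and untrained (48.6 to 61.1%) libraries. The averaged difference was 0.34 points for training and 0.56 points for knockdown (exact permutation p = 0.914 and 0.857).

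**Figure D3:**
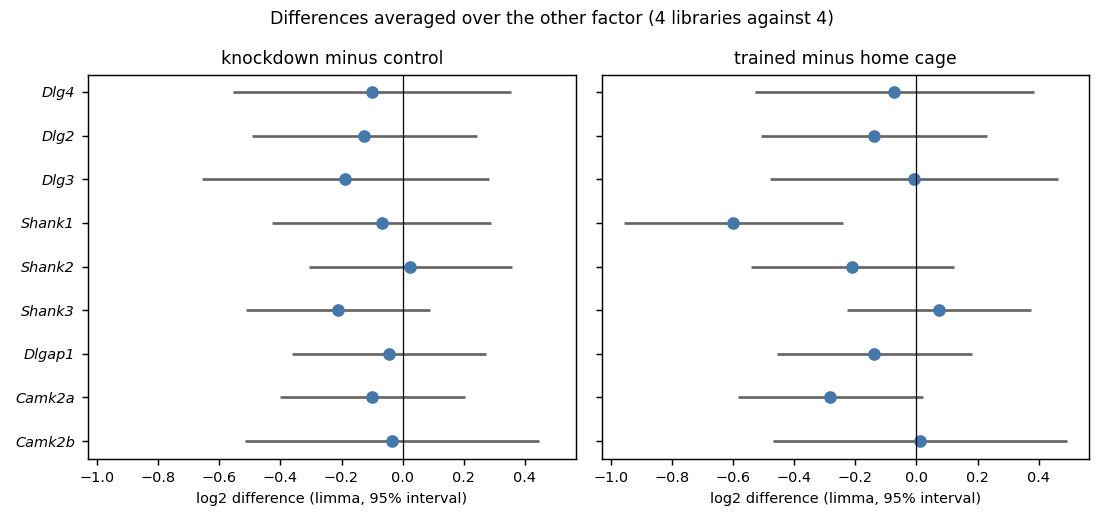
Log2 difference (horizontal axes) of each gene for knockdown minus control and for trained minus home cage, averaged over the other factor; points are limma estimates from 8 libraries and lines their 95% intervals. The Shank1 interval in the training panel, -0.96 to -0.24, is the 1 of 18 that does not reach 0, before adjustment over all genes.

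None of the 9 genes passed the all-gene test (limma, Benjamini-Hochberg adjusted p under 0.05) in any of the 7 comparisons. Among all tested genes 0.103% passed for knockdown averaged over training and 0.00789% for knockdown in trained mice. The other 5 comparisons (knockdown in untrained mice, training averaged and within each vector, and the interaction) called 0.0%. With knockdown averaged over training, 8 of the 9 stood lower and 1 higher, with a median log2 difference of -0.10, against -0.03 over all tested genes, of which 44.3% stood higher. This tally rests on a few libraries: without both shallow libraries 5 of the 9 stood higher and 4 lower (median 0.023), and 4 stood higher and 5 lower without KD.255 alone (median -0.034) or without eGFP.254 (median -0.0073). No member had knockdown libraries all on one side of the control libraries, which 4.26% of tested genes had, and none had an unadjusted p under 0.05 (background 5.59%), nor in untrained mice (background 4.5%) or trained mice (2.36%) alone. The edgeR and DESeq2 fits also called none of the 9 for averaged knockdown, where they called 178 of 14057 genes (background 1.27%) and 218 of the 18629 genes fitted (background 1.17%), so none of 9 is near what these shares give. In untrained mice the median of the 9 was -0.20 and in trained mice 0.00.

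Markers of several cell types were read in the same knockdown comparisons. In untrained mice 18 of 18 excitatory neuron markers stood lower (median -0.36), with summed levels of 54098 and 57713 in the control and 41958 and 48042 in the knockdown libraries. In the same comparison 14 of 15 oligodendrocyte markers stood higher (median 0.52), with summed levels of 12098 and 17227 against 19318 and 20949. In trained mice 12 of the 18 neuron markers and 10 of the 15 oligodendrocyte markers stood higher (medians 0.06 and 0.05). With knockdown averaged over training, 12 of 12 microglia markers stood higher (median 0.86), 9 of them with an unadjusted p under 0.05 and none past the adjusted threshold, and their summed levels were 1329 to 1559 in control and 1950 to 3266 in knockdown libraries. The part of these cell types in the values of the 9 was not tested.

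With training averaged over vector, 7 of the 9 stood lower and 2 higher, with a median of -0.14, against 0.03 over all tested genes, of which 55.1% stood higher. Of the 9, 1 gene, Shank1, had an unadjusted p under 0.05, also within control mice (background 1.43%) and within knockdown mice (4.48%). Shank1 and Camk2a, 2 of 9, had trained and untrained libraries that did not overlap, against 3.26% of tested genes in either direction. In the 6 deeper libraries this held for Shank1, Camk2a and Dlgap1, against 13.6% of tested genes. The median was -0.24 in control mice, where 8 of 9 stood lower, and 0.03 in knockdown mice, where 4 of 9 did. The latter value turned to -0.18 without both shallow libraries. The 2 responses use different libraries, and their difference was positive for 8 of 9 genes, with a median of 0.19 (0.03 over all tested genes). Its largest values were those of Dlg3 (0.55, SE 0.41), Camk2b (0.49, SE 0.43) and Dlgap1 (0.33, SE 0.29), none with an unadjusted p under 0.05 (background 0.883%). Of the 18 excitatory neuron markers, 16 also had a positive difference between the responses, with a median of 0.44, and their part in the values of the 9 was not tested.

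**Figure D4:**
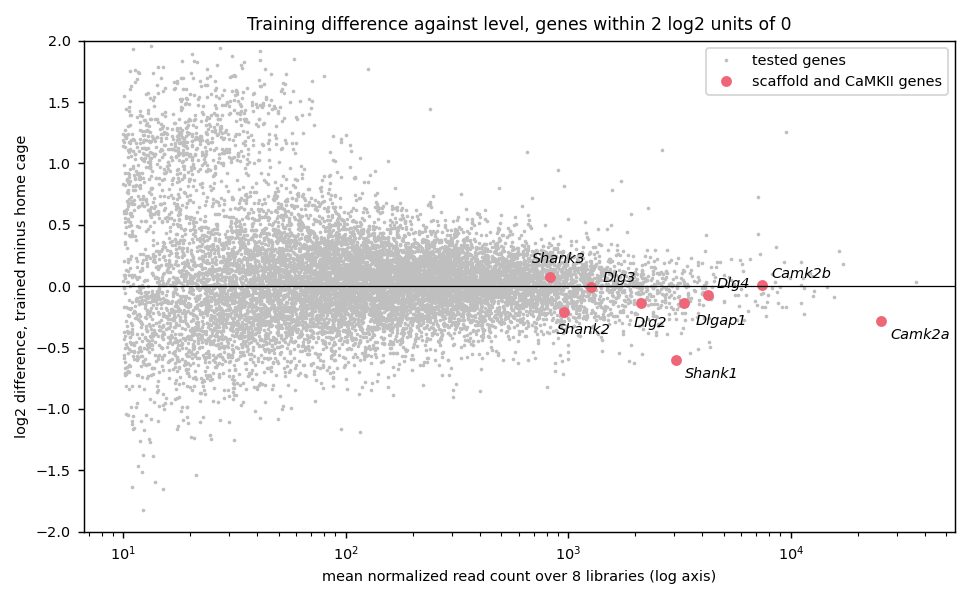
Averaged training difference (log2, vertical axis) against mean normalized read count over 8 libraries (log horizontal axis) for tested genes (grey) and the 9 genes (red); 14 of 12681 genes lie outside the vertical range. Shank1, at -0.60, is the lowest of the 9, and the others lie between -0.28 (Camk2a) and 0.07 (Shank3).

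Across the 8 libraries the 9 genes did not follow a single profile. The root mean square difference of 2 centred log2 profiles was smallest for Dlg4 and Camk2b (0.133) and for Dlg3 and Camk2b (0.136), whose upstream windows are shown above for the latter pair. These 3 genes were high in eGFP.254, eGFP.266 and KD.249 and low in eGFP.250 and KD.255 or KD.251. Next came Shank2 with Dlgap1 (0.168), Dlgap1 with Camk2a (0.171) and the paralogues Dlg4 and Dlg3 (0.177). The most distant pairs were Shank1 with Camk2b (0.477), Dlg2 with Dlg3 (0.463) and Dlg2 with Camk2b (0.463). Other paralogues and subunits of 1 enzyme lay farther apart than Dlg4 and Dlg3: Shank1 and Shank2 by 0.281, Shank2 and Shank3 by 0.292, Camk2a and Camk2b by 0.360, Shank1 and Shank3 by 0.434, and Dlg4 and Dlg2 by 0.457. The largest root mean square deviation from its own mean was that of Shank1, 0.356, at the percentile 90.6 of genes of like level, and the smallest that of Dlgap1, 0.166, at the percentile 28.1.

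**Figure D5:**
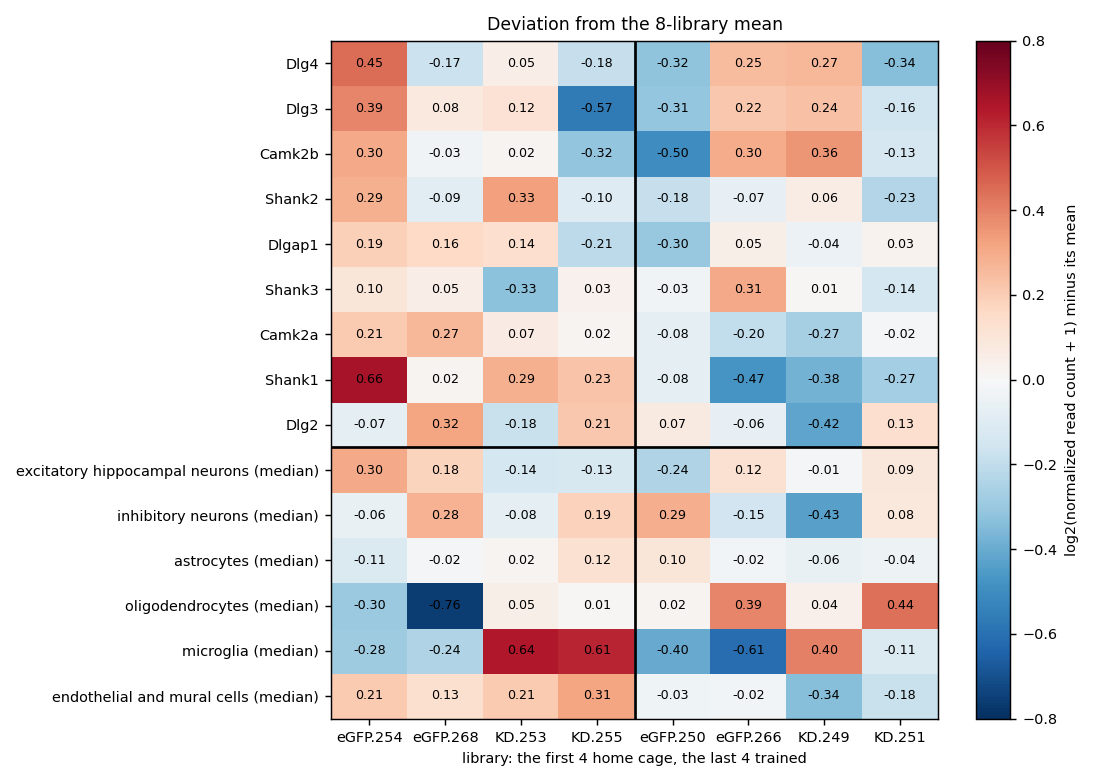
Deviation of log2(normalized read count + 1) from its mean over 8 libraries (colour and printed values) for the 9 genes and, below the line, the median of each marker list; columns are libraries, the first 4 home cage and the last 4 trained. Shank1, Camk2a and the endothelial and mural marker list are the rows with higher values in all 4 home cage than in all 4 trained columns; Dlg4, Dlg3 and Camk2b alternate within groups.

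Of the 4697 genes that averaged at least 200 normalized read counts, those whose profile came nearest to the mean profile of the 9 were Vps39 (root mean square difference 0.061), Csnk1d (0.064), Atp6v0a1 (0.064), Bcr (0.068) and Grin1 (0.069). Vps39 is a tethering protein of late endosomes and lysosomes, Csnk1d a kinase, Atp6v0a1 a subunit of the vacuolar proton pump, and Grin1 the obligatory NMDA receptor subunit. The likeness is over 8 libraries that share size factors, G and C effects and cell makeup, and is given as a description.

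Lists of related genes were read beside the 9 by counts only, and no listed gene passed in either averaged comparison. Of 20 other scaffolds of the excitatory postsynaptic density, 8 stood higher and 12 lower with knockdown (median -0.11), from Homer1 at 0.45 (SE 0.15), which links Shank to metabotropic glutamate receptors, to Grip2 at -0.33. With training 5 stood higher and 15 lower (median -0.06), from Dlg1 at 0.35 (SE 0.13) to Dlgap3 at -0.36 (SE 0.21). Dlg1, the fourth family member, thus differed in sign from Dlg4, Dlg2 and Dlg3, without passing the test (limma adjusted p = 0.873); it measured 584, 570, 700, 863, 612, 498, 664 and 666 normalized read counts, with all 4 trained libraries above the untrained ones. In this direction 1.65% of tested genes did not overlap.

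Of 19 genes of calcium and calmodulin signalling around CaMKII, 3 stood higher and 16 lower with knockdown (median -0.12), from the calcineurin subunit Ppp3ca at 0.12 to the phosphatase subunit Ppp1ca at -0.37. With training 9 stood higher and 10 lower (median -0.01), from Camk2d at 0.57 to Ppp1ca at -0.24. The Camk2d value, for the delta subunit of CaMKII, rests on 1 library: it measured 603 normalized read counts in eGFP.250 and between 117 and 179 in the other 7. That is the library with the highest choroid plexus markers. The library with the next highest sum of these markers, eGFP.254 (18541), had the lowest Camk2d value, 117. A link was not tested.

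Of 17 postsynaptic regulators of small GTPases and actin, 6 stood higher and 11 lower with knockdown (median -0.10), from Synpo (0.14) to Ddn (-0.32). With training 3 stood higher and 14 lower (median -0.17), from Arhgef7 (0.09) to Iqsec2 (-0.38). Of 11 glutamate receptor subunits and auxiliary subunits that scaffolds bind, 6 stood higher and 5 lower with knockdown (median 0.11), from Grin2b (0.24) to Cacng2 (-0.26). With training 2 stood higher and 9 lower (median -0.12), from Cacng2 (0.09) to Cacng3 (-0.38). Of 14 postsynaptic adhesion proteins, 7 stood higher and 7 lower with knockdown (median -0.02), from Epha4 (0.35) to Lrrc4b (-0.25), and 3 and 11 with training (median -0.11), from Ephb2 (0.08) to Adgrl1 (-0.27).

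Of 6 genes of the inhibitory postsynaptic scaffold, 3 stood higher and 3 lower with knockdown (median -0.01), from Iqsec3 (0.19) to Nlgn2 (-0.12). With training 1 stood higher, Gphn (0.34), which encodes gephyrin, and 5 lower (median -0.13), down to Lhfpl4 (-0.26). Of 12 mRNAs known in dendrites, Shank1 and Camk2a among them, 3 stood higher and 9 lower in both comparisons, with medians of -0.10 for knockdown and -0.16 for training. Their extremes were Arc, an activity-induced gene, at 0.78 and Ddn at -0.32 with knockdown, and Arc at 0.95 (SE 0.26, limma adjusted p = 0.873) and Shank1 at -0.60 with training. Arc measured 523, 271, 951, 1103, 920, 902, 1467 and 1062 normalized read counts, with every trained library above every untrained one. Such a lack of overlap, higher in trained libraries, occurred in 1.65% of tested genes. The gap for Arc was narrow, 951 in eGFP.250 against 920 in KD.253, and the value of 902 came from the shallow KD.255.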

How the data were processed

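RNA was measured in 8 libraries, 2 for each of 4 groups, with groups taken from the labels. The authors deposited 1 table of a normalized signal, read counts per gene divided by a size factor. The submitters' processing notes name bcl2fastq 02.14.01.07, STAR 2.3.0, HTSeq 0.6.1, DESeq, bedtools and build mm10; no source used here gives the annotation or the strand setting. In 100% of values, to a relative tolerance of 1e-06, the deposited signal was a whole multiple of what 1 read is worth, so reads were recovered. The table's 5 summary entries stayed out of all totals; per library 16.4 to 20.3% of reads lay in no gene. Column names give the group but do not tie to a replicate number in the labels.

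The values being normalized, the test was limma 3.58.1 (R 4.3.3) with an intensity trend on log2(value + 1), for 12681 genes that averaged 10 or more, adjusted by Benjamini-Hochberg over all of them, at a threshold of 0.05. A difference on this scale understates the change of low genes. Comparisons within a vector or training state and the interaction used all 4 groups (4 residual degrees of freedom, 5.13 from the prior), and averaged comparisons an additive fit (5 and 4.71). Single genes and shares were tested by exact two-sided permutation over libraries. Alternatives were pseudocounts of 0.5 and 10, no filter, a mean of at least 50, TMM scaling, edgeR 4.0.16 and DESeq2 1.42.0 on the recovered reads, limma voom with quality weights, leaving out each library or both shallow ones, a term for 2 sets of column numbers, and, added after seeing the data, a correction for G and C content and length (97.4% of tested genes had a transcript). Only the limma and edgeR fits were tested on simulated data, for averaged knockdown, with changes of 1 or 2 log2 units and 1 assumed dispersion. DESeq2, voom with quality weights, the training comparisons and smaller changes were not tested in this way. Intervals (95%) on reads cover counting error only, since reads carried no molecular identifiers. A count of 0 allows up to 3 reads, which is 46.7 normalized read counts in KD.255, 8.65 in KD.251 and at most 1.98 elsewhere.

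The 9 genes and all lists were chosen with earlier results of these data known. Named beside the 9 are Acss2, the tested gene of each pathway list with the highest and the lowest averaged difference, and the 5 genes with the profile nearest to the mean of the 9 among genes with a mean of at least 200. Fibcd1 and the gene nearest to each of the 9 fall outside this rule and were picked after their values were seen.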

Additional observations from a re-analysis of the deposited data

How the results depend on the processing

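Over the 19 alternatives, 1 of 1197 values of the 9 genes passed the threshold, that of Shank1 for averaged training with voom and quality weights, which made the count of the 9 past the threshold 1 in place of 0. No paired analysis was possible because the deposited columns carry no replicate numbers that match the labels. The number of all genes past the threshold varied with the tool and, for knockdown in untrained mice, training in knockdown mice and the interaction, most with leaving out KD.253, which leaves the shallow KD.255 alone in its group, assumed to vary like the others. For averaged knockdown it was 13 in the fit reported, 178 with edgeR, 218 with DESeq2, 579 with voom and quality weights, 215 without both shallow libraries and 0 with the 2 sets of libraries as a term, and 1 to 102 when leaving out 1 library (102 without KD.251). For averaged training it was 0, 12 with DESeq2 and 344 with voom and quality weights. For knockdown in untrained mice it was 0, 1 with a pseudocount of 10, 34 with edgeR, 55 with DESeq2, 1 with voom and quality weights, 62 without both shallow libraries and 0 to 1279 when leaving out 1 library (1279 without KD.253, 26 without KD.251 and 21 without KD.249). For knockdown in trained mice it was 1, 0 with a pseudocount of 0.5, without a filter or with a mean of at least 50, 14 with edgeR, 33 with DESeq2, 74 without both shallow libraries, 2 with the sets as a term and 0 to 11 when leaving out 1 library (11 without KD.251). For training in control mice DESeq2 called 4, and leaving out 1 library gave 0 to 1232 for training in knockdown mice and 0 to 692 for the interaction, the highest of each without KD.253 and 0 without any other. The cause was not tested.

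Without both shallow libraries the median of the 9 for training in knockdown mice, 0.03, was -0.18, and that for averaged knockdown, -0.10, was 0.023. Leaving out 1 library moved the median of the 9 between -0.15 and -0.01 for averaged knockdown, -0.20 and -0.03 for averaged training, -0.25 and -0.11 for knockdown in untrained mice, -0.08 and 0.10 for knockdown in trained mice, -0.42 and -0.12 for training in control mice, -0.09 and 0.03 for training in knockdown mice, and 0.10 and 0.34 for the interaction.

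The signs of small differences turned, none of them called. For averaged knockdown without both shallow libraries Dlg4 gave 0.11, Dlg3 0.083, Dlgap1 0.023 and Camk2b 0.17. With the sets as a term Shank2 gave -0.040, Dlgap1 0.036 and Camk2b 0.080, and with the G and C and length correction Shank2 gave -0.0032 and Camk2b 0.024. For averaged training Camk2b gave -0.046 without both shallow libraries and -0.010 with TMM scaling, Dlg3 0.019 with the G and C and length correction, and Dlg4 0.0057 with voom and quality weights. Leaving out 1 library for averaged knockdown gave Dlg4 -0.24 to 0.042, Dlg3 -0.35 to 0.0043, Shank1 -0.19 to 0.062, Shank2 -0.058 to 0.11, Dlgap1 -0.15 to 0.056 and Camk2b -0.24 to 0.082. For averaged training it gave Dlg4 -0.21 to 0.071, Dlg3 -0.20 to 0.15, Shank3 -0.0018 to 0.14 and Camk2b -0.14 to 0.22. Averaged training differences of Shank1, Camk2a, Shank2, Dlgap1 and Dlg2, and averaged knockdown differences of Dlg2, Shank3 and Camk2a, kept their sign under all 19 alternatives. With 2 libraries a group, and 54 to 1653 reads per gene in KD.255, differences smaller than the intervals given were not detectable.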

Other observations

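The genes with profiles nearest to single members, over 8 libraries among 4697 genes with a mean of at least 200, were looked up after the values were seen. Icam5, a dendritic adhesion protein of forebrain neurons, came nearest to Camk2b (root mean square log2 difference 0.047), nearer than any other of the 9. Brsk2, a neuronal polarity kinase, came nearest to Camk2a (0.045), and Homer2, a scaffold that binds Shank, to Dlg2 (0.064). The nearest gene to Shank1, Plbd2, was 0.093 away. For the remaining members these were Psip1 for Shank3 (0.050), Nell2 for Dlgap1 (0.058) and Zmiz1 for Shank2 (0.064). Ppp1r12c came nearest to Dlg4 (0.071) and AU040320 to Dlg3 (0.084).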
